A study of Mus musculus with 9 samples.

Results

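The liver makes most of the complement, clotting and fibrinolytic proteins of blood plasma, and 37 genes for these proteins and their plasma inhibitors were followed through a mouse diet and drug experiment. They were chosen by symbol from a fixed list, with earlier results of these data known. A total of 36 of the 37 genes had a row among the 45513 rows of the counts table, and all 36 were among the 12102 genes tested. The expression of Klkb1, which encodes plasma prekallikrein, was not analysed here. The lowest count of any of the 36 genes in any library was 120.

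Liver RNA came from C57BL/6 mice after 9 weeks of feeding and treatment, and was enriched for polyadenylated RNA before sequencing by Ion Torrent. The 3 groups were high fat diet with B-LGND2, high fat diet with vehicle and normal diet with vehicle, with 3 libraries each. B-LGND2 is known here only by its code name, and the series' title presents it as a ligand of estrogen receptor beta, a nuclear hormone receptor. No group received B-LGND2 on the normal diet. The sources used here do not give doses, age, sex or the make-up of the diets. The labels give n = 3 per group and no batch, so a p-value sets a difference between groups only against the scatter of these 9 libraries.

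Complement is a cascade of plasma proteases and binding proteins that marks microbes and debris for removal. Its classical and lectin routes cleave C4 and C2, all routes meet at C3, and the terminal components assemble into a pore in the target membrane. Coagulation is a parallel protease cascade that ends in thrombin, which turns fibrinogen into fibrin, while plasmin dissolves the clot and serpins restrain both systems. Hepatocytes secrete nearly all of these proteins, and several rise or fall as part of the acute phase response to inflammation.

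Library totals ran from 5778978 to 10322972 counts. Gene models annotated as ribosomal RNA took 4.31% to 6.19% of counts in high fat B-LGND2 livers, 0.901% to 1.44% in high fat vehicle livers and 3.16% to 3.75% in normal diet vehicle livers, so this share and the group cannot be told apart. The summed level of 12 macrophage markers was 1171 to 1503 counts scaled to library size (CPM) in high fat B-LGND2 livers, against 329.2 to 443.1 CPM in high fat vehicle livers and 352.4 to 600.4 CPM in normal diet vehicle livers. That sum includes the 3 C1q genes, and without them it was 716.3 to 923.1, 195.1 to 275.0 and 210.5 to 371.2 CPM in the same order. The summed level of 8 hepatocyte markers was 72620 to 111900 CPM in high fat B-LGND2 livers. It was 74180 to 80770 CPM in high fat vehicle livers and 73100 to 83180 CPM in normal diet vehicle livers. Single markers went both ways. For diet 5 of the 8 were higher and 3 lower, and for B-LGND2 on the high fat diet 4 were higher and 4 lower. The sum includes Apoa1, at 33960 ± 20930 CPM in high fat B-LGND2 livers (SD, n = 3). No count of cells was made, and in bulk tissue fewer cells of a type and less RNA per cell cannot be told apart.

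The 5′ flanks of some of these genes are shown first, for pairs of genes described further on. Whether these flanks have a part in the levels of the genes was not tested. RefSeq promoter windows on GRCm38.p6, from 250 bases before to 50 bases after the annotated start, were matched by symbol to 29 of the 37 genes. C2, C4b, Cfb, Cfi, Kng1, Masp1, Plg and Proc were not matched. Mbl1 and Mbl2 encode the mannose-binding lectins of mouse and lie on different chromosomes. The 120 bases before the start of Mbl1 are chr14:41151336-41151455 and those before the start of Mbl2 are chr19:30232808-30232927, both on the plus strand. Capitals mark the 30-base stretches of the pair that are most alike without gaps, with 27 identical bases.
Mbl1: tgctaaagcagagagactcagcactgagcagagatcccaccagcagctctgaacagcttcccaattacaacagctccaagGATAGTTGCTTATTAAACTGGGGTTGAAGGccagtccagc
Mbl2: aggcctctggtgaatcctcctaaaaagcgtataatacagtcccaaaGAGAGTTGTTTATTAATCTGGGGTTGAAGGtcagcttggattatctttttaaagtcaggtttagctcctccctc
The stretch begins 40 bases before the start in Mbl1 and 74 bases before it in Mbl2. Among 463 pairs of windows compared in the same way, the next best pair shared 21 of 30 bases and the median was 18. This likeness was looked at after the sequences had been seen, and it says nothing of which protein binds there.

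C8b and C8a encode the beta and alpha chains of complement C8 and are neighbours on chromosome 4 with facing 3′ ends. The 250 bases before their starts are shown because C8b was called with B-LGND2 and C8a was not. A link of these bases to the calls was not tested. They are chr4:104766067-104766316 on the plus strand for C8b and chr4:104876399-104876648 on the minus strand for C8a, with the only matches to the motifs searched in capitals.
C8b: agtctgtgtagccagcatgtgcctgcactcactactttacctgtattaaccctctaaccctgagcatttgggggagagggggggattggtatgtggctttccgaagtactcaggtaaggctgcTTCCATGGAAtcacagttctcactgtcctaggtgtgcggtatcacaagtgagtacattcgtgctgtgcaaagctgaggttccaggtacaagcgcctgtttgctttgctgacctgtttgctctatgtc
C8a: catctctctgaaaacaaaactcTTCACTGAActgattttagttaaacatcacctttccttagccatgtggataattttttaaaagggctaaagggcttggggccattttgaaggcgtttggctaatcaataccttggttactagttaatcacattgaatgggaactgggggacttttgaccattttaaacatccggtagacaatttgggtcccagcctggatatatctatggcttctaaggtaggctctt
The capitals in C8a match TTCNNNGAA, and those in C8b match the same arms with 1 more base between them. STAT transcription factors, which carry cytokine signals, bind motifs of both spacings. Of all 27025 genes with a window, 8.01% held the longer spacing and 9.55% the shorter one. The longer spacing was found in 2 of the 29 matched genes, C8b and Pros1, and the shorter in 8.

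C/EBP is a transcription factor family that acts in hepatocytes, and its letters (TTGCNNAA, on either strand) were in 11 of the 29 matched genes and in 12.2% of all genes with a window. HNF4 letters (the direct repeat with up to 2 mismatches) were in 2 of 29, F7 and Masp2, and in 1.69% of all genes. Letters of an estrogen response element (the core palindrome with up to 1 mismatch) were in 0.995% of all genes and in 0 of the 29, which says only that these letters are not in these windows. Motif matches are descriptions of sequence, with no test.

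Fibrinogen and vitronectin dominated the group. Counts of the 36 genes together took 4.17% to 4.90% of each library in high fat B-LGND2 livers, 4.12% to 4.82% in high fat vehicle livers and 3.47% to 4.40% in normal diet vehicle livers. To compare genes with each other, CPM was divided by the length of all annotated exons of a gene in kb. By this level per kb, the 5 highest genes were Fga, Vtn, Fgg, Fgb and C3, and they took 55.9% to 67.7% of the summed level per kb of the 36 genes in a library. The 3 fibrinogen chains alone took 32.6% to 45.3% of it.

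**Figure D1:**
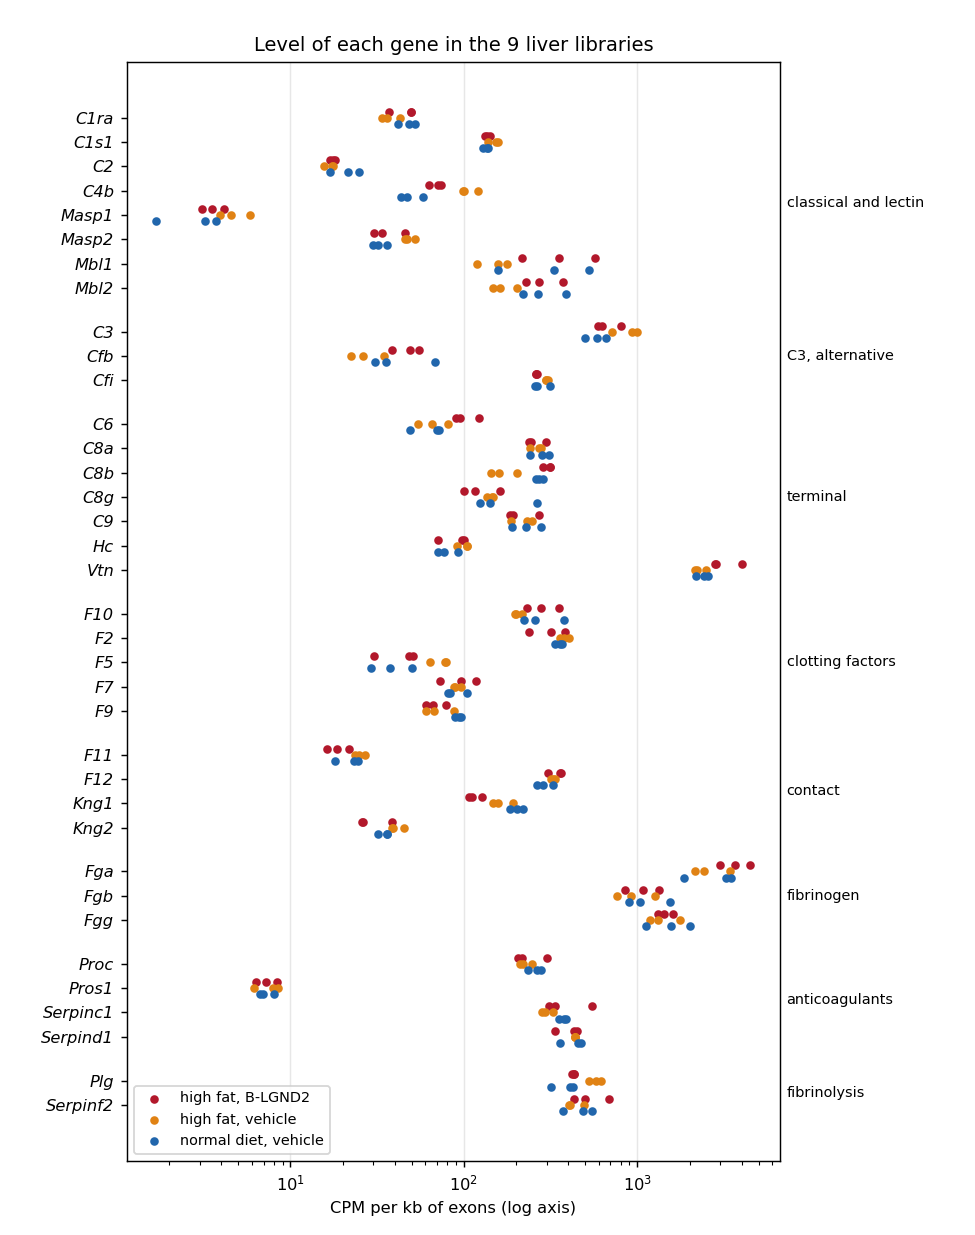
Level of each of the 36 genes in each of the 9 libraries, in CPM per kb of exons on a log axis, with genes grouped by role. Each point is 1 library, in red for high fat with B-LGND2, orange for high fat with vehicle and blue for normal diet with vehicle. Fga and Vtn lie at the top of the range in every library and Masp1 at the bottom.

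Fga had 3663, 4479 and 3011 CPM per kb in high fat B-LGND2 livers, against 3398, 2422 and 2159 CPM per kb in high fat vehicle livers and 1858, 3248 and 3484 CPM per kb in normal diet vehicle livers. Vtn, which encodes vitronectin, an inhibitor of the terminal complement pore and an adhesion protein, had 4004, 2859 and 2790 CPM per kb in high fat B-LGND2 livers. It had 2486, 2220 and 2157 CPM per kb in high fat vehicle livers and 2185, 2543 and 2408 CPM per kb in normal diet vehicle livers. The B-LGND2 libraries thus lay above all others for Vtn, while the 3 groups overlapped for Fga. Fgg averaged 1446 ± 142.6 CPM per kb in high fat B-LGND2 livers, 1417 ± 298.0 in high fat vehicle livers and 1570 ± 448.7 in normal diet vehicle livers (SD, n = 3 each). C3, the component at which all complement routes meet, averaged 675.5 ± 113.4 CPM per kb in high fat B-LGND2 livers, 880.4 ± 144.2 in high fat vehicle livers and 581.2 ± 81.1 in normal diet vehicle livers.

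The order of the genes changed little between libraries at both ends. Fga ranked first or behind Vtn in each of the 9 libraries, Fgg ranked 3 in all 9, and Masp1 ranked 36 in all 9. Mbl1 was the most variable in rank, between 7 and 23 of 36, and C8b ran from 11 to 20. After C3, by the mean of all libraries, came Serpinf2, Plg, Serpind1, Serpinc1 and F2, which encode antiplasmin, plasminogen, heparin cofactor II, antithrombin and prothrombin. Their order depended on the group: Plg led them in high fat vehicle livers at 575.1 ± 47.3 CPM per kb, and Serpinf2 led them in high fat B-LGND2 livers at 540.0 ± 134.7 and in normal diet vehicle livers at 467.7 ± 87.2 CPM per kb (SD, n = 3 each). In normal diet vehicle livers the neighbours in this order lay within 1 SD of each other. Exon length here is the union over annotated transcripts, so a gene with long, rarely used exons reads low on this scale.

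The diet comparison asks what 9 weeks of high fat feeding did under vehicle. With edgeR's quasi-likelihood test and Benjamini-Hochberg adjustment over all 12102 genes, C4b rose and no other gene of the 36 passed an adjusted p of 0.05. That is 1 of 36, where 2.99% of all genes tested were called, 1.5% higher and 1.49% lower. At an unadjusted p under 0.05 there were 10 of 36, 6 higher and 4 lower, where 22.4% of all genes reached it. DESeq2's Wald test called 6 of 36, where 9.63% of the genes it gave an adjusted p were called. Libraries of high fat vehicle and normal diet vehicle livers did not overlap for 13 of 36 genes, 8 higher and 5 lower, and this held for 30.1% of all genes, 15.4% higher and 14.8% lower. The median log2 fold change of the 36 was -0.06, against 0.01 over all genes tested.

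The ligand comparison asks what B-LGND2 did on the high fat diet, and it shares the high fat vehicle libraries with the diet comparison. C8b rose with B-LGND2 and no other gene of the 36 passed, which is 1 of 36 where the same edgeR test called 5.63% of all genes, 3.07% higher and 2.56% lower. At an unadjusted p under 0.05 there were 9 of 36, 6 higher and 3 lower, where 23.7% of all genes reached it, and DESeq2 called 5 of 36, where it called 9.28% of genes. Libraries did not overlap for 14 of 36 genes, 7 higher and 7 lower, against 33.6% of all genes, 16.4% higher and 17.2% lower. The median log2 fold change was -0.03 over the 36 genes and 0.00 over all genes.

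The last comparison sets high fat B-LGND2 livers against normal diet vehicle livers, and shares libraries with both others. Kng1 fell and no other gene passed, which is 1 of 36 where edgeR called 2.93% of all genes, 1.59% higher and 1.33% lower. An unadjusted p under 0.05 was reached by 3 of 36 genes and by 19.4% of all genes, and DESeq2 called 1 of 36, where it called 5.46% of genes. Libraries did not overlap for 5 of 36 genes, 3 higher and 2 lower, against 20.5% of all genes. The median was 0.02 over the 36 genes and -0.01 over all genes. Over the 3 comparisons, the share of these genes that passed a criterion was near its share over all genes or below it, apart from more calls by DESeq2 for diet and for B-LGND2 on the high fat diet. Among the 3669 genes at least as abundant as the lowest of the 36 that had an adjusted p, DESeq2 called 14.4% for diet, 13.7% for B-LGND2 and 7.28% in the last comparison.

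**Figure D2:**
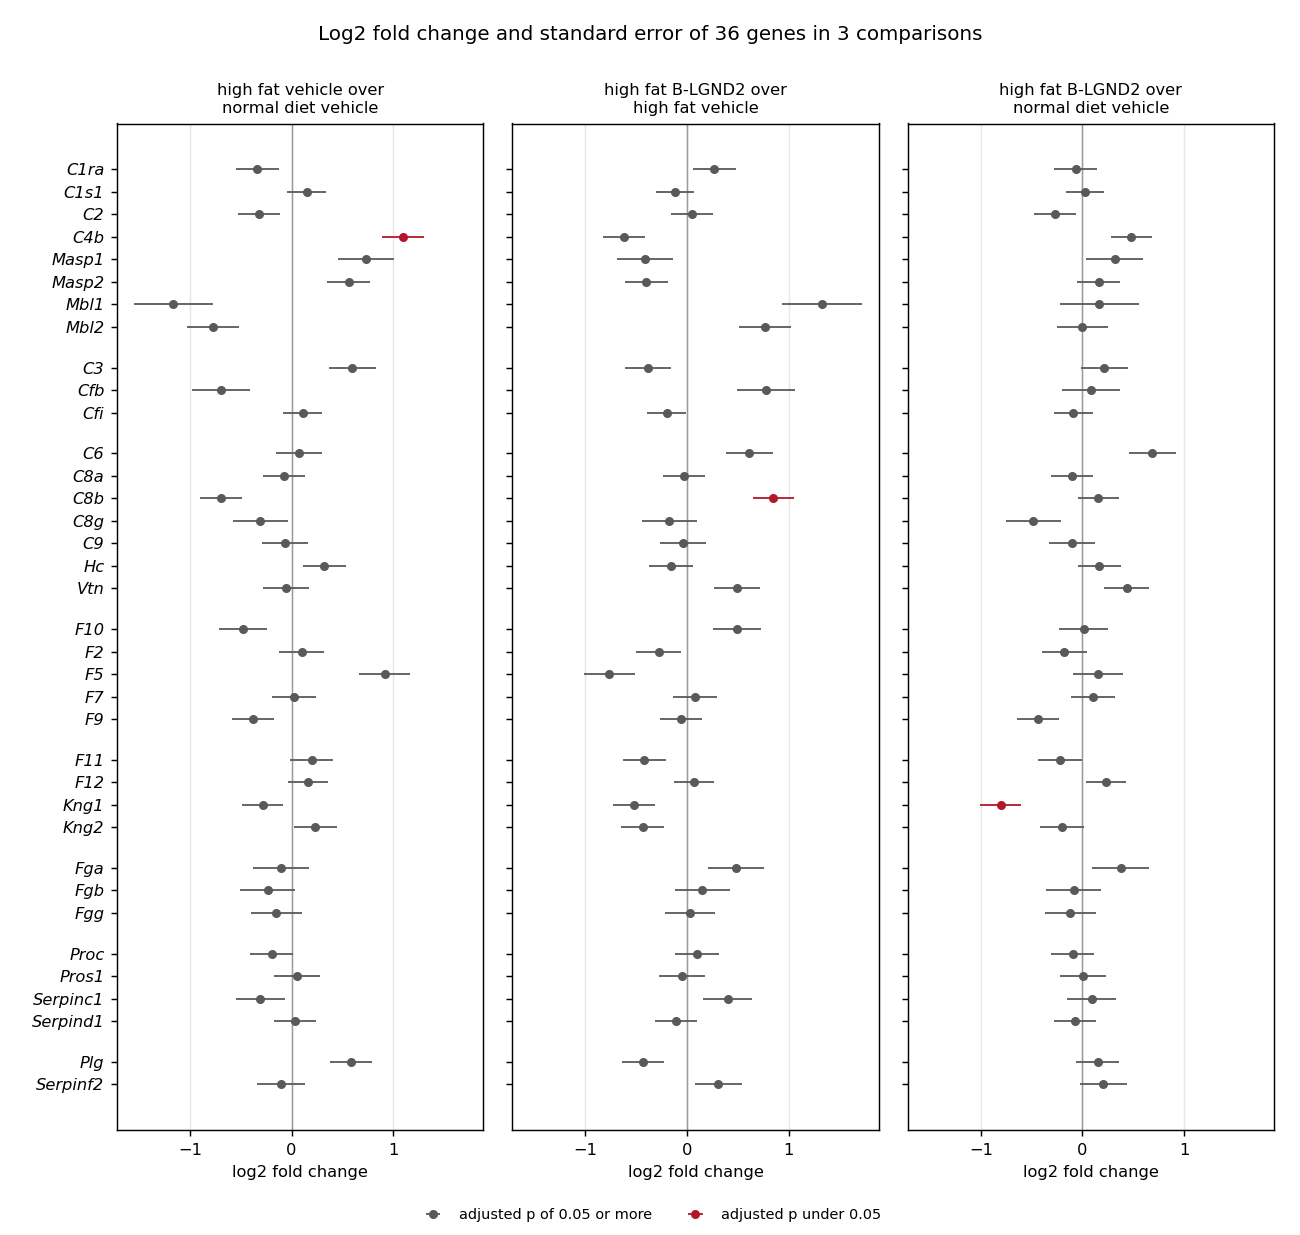
Log2 fold change of each of the 36 genes in the 3 comparisons, with bars of 1 standard error from edgeR's quasi-likelihood fit and the group named first on top of the ratio. Red points passed an adjusted p of 0.05: C4b in the diet comparison at 1.10, C8b in the ligand comparison at 0.85 and Kng1 in the last comparison at -0.81.

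Among the 8 classical and lectin genes, C4b was called for diet, and Mbl1 and Mbl2 had the largest fold changes for B-LGND2 without being called by edgeR. C4b, which encodes complement C4, the protein cleaved first by both routes, lies on chromosome 17 (chr17:34728380-34743882, minus strand, GRCm38). It had 570.6, 685.9 and 560.2 CPM in high fat vehicle livers, against 330.3, 269.2 and 247.7 CPM in normal diet vehicle livers. The groups did not overlap, and C4b was 2.14-fold higher on the high fat diet (1.10 on the log2 scale, SE 0.21, adjusted p = 0.0156, edgeR quasi-likelihood test with Benjamini-Hochberg adjustment). With B-LGND2 it had 358.0, 422.1 and 403.5 CPM, between the other groups and overlapping neither. Its log2 fold change was -0.62 over high fat vehicle (adjusted p = 0.0809) and 0.48 over normal diet vehicle (adjusted p = 0.206), neither of which passed the edgeR test. DESeq2 called the first of these (adjusted p = 0.0345). With offsets for length and GC of the transcripts, the value over normal diet vehicle was 0.09.

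The C4b call for diet did not hold without high fat vehicle replicate 1 (adjusted p = 0.0618), 2 (0.0805) or 3 (0.0567), nor without normal diet vehicle replicate 2 (0.0616), in edgeR's quasi-likelihood test. The log2 fold change in these 4 fits was 1.14, 1.00, 1.16 and 1.07 in the same order. With offsets for length and GC of the transcripts it was 0.65 (adjusted p = 0.0661), and was 1.02 with the ribosomal RNA share as a covariate (adjusted p = 0.467). C4a, a near-identical neighbour of C4b, had 2730 counts over the 9 libraries, against 25959 for C4b. It had 79 to 831 counts per library. In edgeR's quasi-likelihood test C4a gave 1.20 for diet (SE 0.60, adjusted p = 0.268). For B-LGND2 on the high fat diet it gave -1.27 (SE 0.60, adjusted p = 0.231). The sources used here do not say how reads shared by C4a and C4b were counted.

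C4b stood apart from C2, its partner in the C3 convertase of both routes. The ratio of C4b over C2 in level per kb was 3.48, 4.20 and 4.21 in high fat B-LGND2 livers, 5.68, 7.70 and 5.68 in high fat vehicle livers and 2.34, 2.19 and 2.57 in normal diet vehicle livers. No library of one group reached the range of another. C2 itself had log2 fold changes of -0.32 for diet (adjusted p = 0.373) and 0.05 for B-LGND2 on the high fat diet (adjusted p = 0.898) in the edgeR test. This and the other ratios were chosen after values had been seen and were not tested.

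Mbl1 had 889.5, 341.2 and 552.9 CPM in high fat B-LGND2 livers, against 278.0, 187.1 and 245.5 CPM in high fat vehicle livers. Every B-LGND2 library was above every vehicle library, but the B-LGND2 libraries spread widely. The log2 fold change was 1.33 (SE 0.39, adjusted p = 0.063, edgeR quasi-likelihood test), and in normal diet vehicle livers Mbl1 had 247.4, 516.1 and 826.3 CPM, which overlapped both high fat groups. Its log2 fold change for diet was -1.16 (adjusted p = 0.105). DESeq2 called Mbl1 for B-LGND2 (adjusted p = 0.0105) and for diet (adjusted p = 0.0286). The diet value was -0.69 without normal diet vehicle replicate 3 (adjusted p = 0.475) and -0.77 with the length and GC offsets (adjusted p = 0.243). With the same offsets, the ligand difference was 1.20 and passed (adjusted p = 0.0446).

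Mbl2, the other mannose-binding lectin, whose values were read beside Mbl1 after they had been seen, had 407.6, 247.0 and 295.3 CPM in high fat B-LGND2 livers. It had 176.0, 220.9 and 160.7 CPM in high fat vehicle livers and 238.8, 292.2 and 420.6 CPM in normal diet vehicle livers. The high fat vehicle libraries were the lowest 3 of the 9 for Mbl2. Its log2 fold change was 0.77 for B-LGND2 (adjusted p = 0.0806) and -0.77 for diet (adjusted p = 0.0931), so neither passed the edgeR test, and the diet difference was -0.25 with length and GC offsets. DESeq2 called Mbl2 for B-LGND2 (adjusted p = 0.0458) and for diet (adjusted p = 0.0424).

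The remaining genes of these routes did not pass in any comparison. Masp1 and Masp2, which encode the proteases carried by the lectins, had log2 fold changes for diet of 0.73 (adjusted p = 0.135) and 0.56 (adjusted p = 0.132), and for B-LGND2 of -0.41 (adjusted p = 0.376) and -0.40 (adjusted p = 0.259), in edgeR's quasi-likelihood test. Without normal diet vehicle replicate 3, the diet value of Masp1 was 0.46 (adjusted p = 0.448). C1ra and C1s1 encode the proteases of the C1 complex, and ranged from -0.34 to 0.27 over the 3 comparisons. Their near copies C1rb and C1s2 had 1 and 3 counts in all 9 libraries. Over the 8 genes the median log2 fold change was -0.09 for diet, -0.03 for B-LGND2 on the high fat diet and 0.09 for B-LGND2 against the normal diet.

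**Figure D3:**
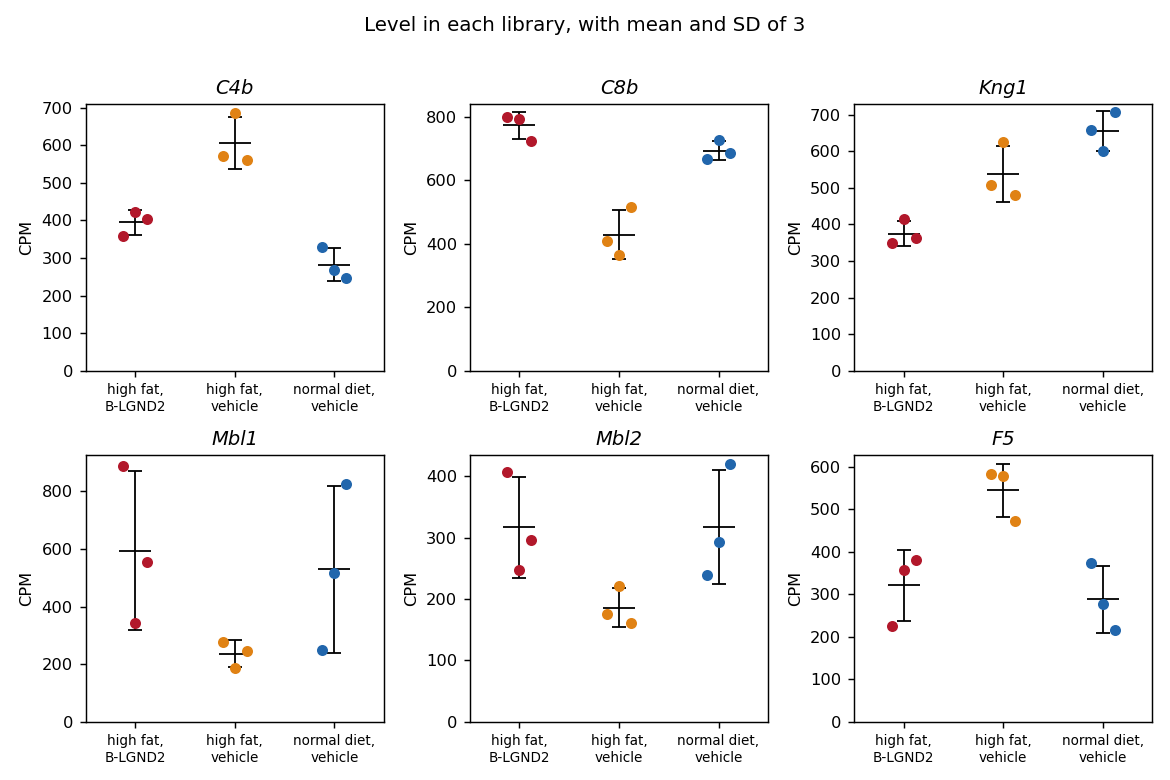
CPM of C4b, C8b, Kng1, Mbl1, Mbl2 and F5 in each library, with points for libraries, a dash for the mean and bars for 1 SD (n = 3 per group). C4b is highest in high fat vehicle livers, where C8b is lowest, and Kng1 is lowest with B-LGND2. The 3 genes of the lower row were not called by edgeR, while DESeq2 called each for diet and for B-LGND2 on the high fat diet. The 6 genes shown were picked after their values were seen.

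C3 and the alternative route gave no call. C3 had 3061, 4141 and 3219 CPM in high fat B-LGND2 livers, 5097, 4797 and 3689 CPM in high fat vehicle livers and 3027, 2555 and 3387 CPM in normal diet vehicle livers. High fat vehicle livers lay above normal diet vehicle livers without overlap, and the B-LGND2 livers overlapped both. The log2 fold change of C3 was 0.60 for diet (adjusted p = 0.138), -0.38 for B-LGND2 (adjusted p = 0.323) and 0.22 in the last comparison (adjusted p = 0.647), in edgeR's quasi-likelihood test. With length and GC offsets the diet value was 0.20 (adjusted p = 0.684).

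Cfb encodes factor B, the protease of the alternative route. It had 138.8, 108.6 and 156.4 CPM in high fat B-LGND2 livers, against 97.96, 63.31 and 74.15 CPM in high fat vehicle livers and 87.18, 100.7 and 192.8 CPM in normal diet vehicle livers. B-LGND2 and vehicle libraries on the high fat diet did not overlap, while the normal diet libraries overlapped both. In the edgeR quasi-likelihood test Cfb gave 0.78 for B-LGND2 (SE 0.28, adjusted p = 0.109) and -0.69 for diet (SE 0.28, adjusted p = 0.163). Without normal diet vehicle replicate 3, its highest library, the diet value was -0.26 (adjusted p = 0.703). An annotated model, Gm20547, overlaps Cfb and C2, so counts of these genes depend on how overlapping reads were assigned. Cfi, which encodes factor I, an inactivator of cleaved C3 and C4, ranged from -0.20 to 0.11.

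Of the 7 terminal genes, C8b was called for B-LGND2. C8b had 800.6, 794.1 and 723.4 CPM in high fat B-LGND2 livers, against 407.7, 364.7 and 514.1 CPM in high fat vehicle livers. The groups did not overlap, and C8b was 1.80-fold higher with B-LGND2 (log2 fold change 0.85, SE 0.20, adjusted p = 0.0263, edgeR quasi-likelihood test with Benjamini-Hochberg adjustment). Normal diet vehicle livers had 666.3, 726.5 and 686.3 CPM, above all high fat vehicle libraries and overlapping the lowest B-LGND2 library. The log2 fold change for diet was -0.69 (SE 0.20, adjusted p = 0.0695), which did not pass by edgeR, and that over normal diet was 0.16 (adjusted p = 0.717). DESeq2 called the diet difference of C8b (adjusted p = 0.0108).

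The C8b call for B-LGND2 was lost without high fat vehicle replicate 1 (adjusted p = 0.116), 2 (0.159) or 3 (0.0536) and without B-LGND2 replicate 1 (0.0711), in edgeR's quasi-likelihood test, with log2 fold changes of 0.81, 0.74, 1.00 and 0.85 in the same order. It was also lost without scaling beyond the library total (0.67, adjusted p = 0.0644) and with the ribosomal RNA share as a covariate (0.70, adjusted p = 0.98). It stayed past the threshold with length and GC offsets (0.84, adjusted p = 0.011).

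C8a and C8g, for the other chains of the same C8 protein, did not share the values of C8b. C8a had 865.0, 1078 and 880.6 CPM in high fat B-LGND2 livers, 1016, 872.3 and 986.7 CPM in high fat vehicle livers and 1129, 1030 and 873.6 CPM in normal diet vehicle livers, with all groups overlapping. Its log2 fold changes ran from -0.10 to -0.03. The ratio of C8a over C8b in level per kb averaged 0.853 ± 0.097 in high fat B-LGND2 livers, 1.59 ± 0.21 in high fat vehicle livers and 1.02 ± 0.15 in normal diet vehicle livers (SD, n = 3 each). The lowest high fat vehicle ratio, 1.34, was above the highest of the other groups, 1.19. Whether the response of C8b differed from that of C8a was not tested.

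**Figure D4:**
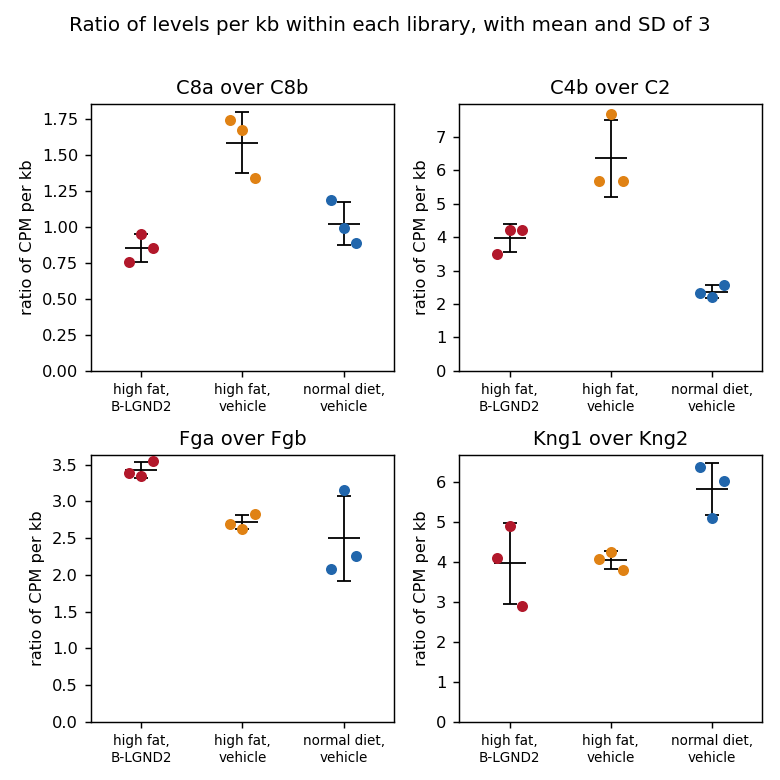
Ratio of levels per kb of 4 pairs of genes within each library, with points for libraries, a dash for the mean and bars for 1 SD (n = 3 per group). C8a over C8b averages 1.59 in high fat vehicle livers and C4b over C2 averages 6.35 there, above both other groups, and Fga over Fgb averages 3.43 with B-LGND2. The pairs were chosen after values were seen.

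C6 and Vtn were highest with B-LGND2 in these libraries, without a call. C6, which joins the pore after C5, had 433.7, 339.4 and 318.7 CPM in high fat B-LGND2 livers, 233.7, 193.7 and 287.0 CPM in high fat vehicle livers and 255.0, 249.4 and 173.9 CPM in normal diet vehicle livers. The B-LGND2 libraries were above the other 6. In the edgeR quasi-likelihood test C6 gave 0.61 over high fat vehicle (SE 0.23, adjusted p = 0.116) and 0.69 over normal diet vehicle (SE 0.23, adjusted p = 0.116). With length and GC offsets the difference from normal diet vehicle was 0.85 and passed (adjusted p = 0.0403). Vtn was 0.49 over high fat vehicle (SE 0.22, adjusted p = 0.194) and 0.44 over normal diet vehicle (SE 0.22, adjusted p = 0.298). The first of these was 0.30 without scaling beyond the library total, 0.23 with the offsets and -0.27 with the ribosomal RNA share as a covariate.

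The other terminal genes did not pass. C8g gave -0.31 for diet, -0.17 for B-LGND2 and -0.48 in the last comparison (adjusted p = 0.339 for the last, edgeR quasi-likelihood test). C9, the pore-forming component, had log2 fold changes of -0.06, -0.04 and -0.10 for diet, for B-LGND2 and in the last comparison. Hc, the mouse gene for C5, had 0.32, -0.16 and 0.16 in the same order. The SEs of the C9 and Hc values were 0.21 to 0.23.

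F5 had the largest fold changes among the clotting factors for diet and for B-LGND2 on the high fat diet, and edgeR called none of the 5 factors in any comparison. F5 encodes factor V, the cofactor that speeds thrombin formation. It had 225.5, 357.3 and 379.9 CPM in high fat B-LGND2 livers, 583.5, 578.0 and 473.1 CPM in high fat vehicle livers and 372.7, 277.0 and 215.5 CPM in normal diet vehicle livers. High fat vehicle libraries were the 3 highest of the 9. By edgeR the difference was 0.92 for diet (SE 0.25, adjusted p = 0.0558) and -0.76 for B-LGND2 (SE 0.25, adjusted p = 0.0788), and DESeq2 called both (adjusted p = 0.0131 and 0.0466). With length and GC offsets the B-LGND2 value was -0.48 (adjusted p = 0.093).

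F9, which encodes factor IX, the protease missing in haemophilia B, had the smallest p of the clotting factors in the last comparison. It had 166.0, 216.6 and 180.9 CPM in high fat B-LGND2 livers, 239.0, 183.2 and 165.0 CPM in high fat vehicle livers and 254.8, 244.3 and 264.6 CPM in normal diet vehicle livers. Normal diet libraries were the highest 3, and the log2 fold change was -0.44 with B-LGND2 against normal diet (adjusted p = 0.26) and -0.38 for diet alone (adjusted p = 0.295), in edgeR's quasi-likelihood test. F10, F7 and F2, for factors X and VII and prothrombin, ranged from -0.48 to 0.49 over the comparisons, and F10 held both ends.

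In the contact system, Kng1 was lowest with B-LGND2. Kng1 encodes a kininogen, the carrier of bradykinin and a cofactor of contact activation, and lies at chr16:23057865-23082078 on the plus strand of GRCm38. It had 348.9, 414.2 and 361.9 CPM in high fat B-LGND2 livers, against 658.3, 599.8 and 708.3 CPM in normal diet vehicle livers. The groups did not overlap, and the level with B-LGND2 was 0.572 times that on the normal diet (-0.81 on the log2 scale, SE 0.20, adjusted p = 0.042, edgeR quasi-likelihood test with Benjamini-Hochberg adjustment). High fat vehicle livers had 508.4, 626.4 and 479.9 CPM, above all B-LGND2 libraries and overlapping the normal diet. The log2 fold change was -0.52 for B-LGND2 over high fat vehicle (adjusted p = 0.128) and -0.28 for diet (adjusted p = 0.426), so neither step passed alone.

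The Kng1 call was close to the threshold and was lost in most other fits. Leaving out any library except normal diet vehicle replicate 1 gave an adjusted p of 0.061 to 0.114 in edgeR's quasi-likelihood test, with log2 fold changes of -0.88 to -0.75. These were normal diet vehicle replicates 2 and 3 and all 6 high fat libraries. With length and GC offsets the log2 fold change was -0.60 (adjusted p = 0.0688), and with the ribosomal RNA share as a covariate -0.89 (adjusted p = 0.624).

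Kng2, the other mouse kininogen gene and a neighbour of Kng1, had log2 fold changes of 0.23 for diet, -0.44 for B-LGND2 and -0.20 in the last comparison, none of which passed. The ratio of Kng1 over Kng2 per kb was 4.10, 4.91 and 2.90 in high fat B-LGND2 livers, 4.08, 4.25 and 3.80 in high fat vehicle livers and 6.38, 5.10 and 6.02 in normal diet vehicle livers. Normal diet ratios were above all high fat ratios. Kng1 and Kng2 are near copies, so reads they share could be counted for either. F11 and F12, for factors XI and XII, ranged from -0.42 to 0.23.

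The 3 fibrinogen chains gave no call, and their log2 fold changes had SEs of 0.25 to 0.28. Fga had 11030, 13480 and 9063 CPM in high fat B-LGND2 livers, 10230, 7289 and 6499 CPM in high fat vehicle livers and 5594, 9777 and 10490 CPM in normal diet vehicle livers. Its log2 fold change was 0.48 for B-LGND2 (adjusted p = 0.30), -0.11 for diet (adjusted p = 0.853) and 0.38 in the last comparison (adjusted p = 0.483), in edgeR's quasi-likelihood test. Fgb had 4123, 5094 and 3235 CPM in high fat B-LGND2 livers, 4796, 3507 and 2909 CPM in high fat vehicle livers and 3410, 3927 and 5866 CPM in normal diet vehicle livers. Fgg had 2979, 3346 and 2755 CPM in high fat B-LGND2 livers, 3668, 2757 and 2474 CPM in high fat vehicle livers and 2346, 3291 and 4224 CPM in normal diet vehicle livers. Groups overlapped for all 3 chains in every comparison.

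Within libraries, the ratio of Fgg to Fgb per kb overlapped between groups, and that of Fga to Fgb did not with B-LGND2. Fgg over Fgb averaged 1.35 ± 0.18 in high fat B-LGND2 livers, 1.46 ± 0.08 in high fat vehicle livers and 1.36 ± 0.14 in normal diet vehicle livers (SD, n = 3 each). Fga over Fgb averaged 3.43 ± 0.10 in high fat B-LGND2 livers, 2.72 ± 0.10 in high fat vehicle livers and 2.50 ± 0.57 in normal diet vehicle livers. B-LGND2 ratios of Fga over Fgb, from 3.35 to 3.55, were above the other 6, of which the highest was 3.15.

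Anticoagulants did not pass in any comparison. Serpinc1, which encodes antithrombin, had 4666, 2627 and 2875 CPM in high fat B-LGND2 livers, 2503, 2798 and 2408 CPM in high fat vehicle livers and 3018, 3224 and 3301 CPM in normal diet vehicle livers. High fat vehicle livers lay below the normal diet livers without overlap, at a log2 fold change of -0.31 (adjusted p = 0.473), and B-LGND2 gave 0.40 over high fat vehicle (adjusted p = 0.324), in edgeR's quasi-likelihood test. Proc, which encodes protein C, the vitamin K-dependent protease that inactivates factor V, had 749.2, 537.2 and 509.7 CPM in high fat B-LGND2 livers, 615.3, 520.8 and 541.1 CPM in high fat vehicle livers and 650.5, 582.0 and 688.8 CPM in normal diet vehicle livers. Groups overlapped for Proc in all comparisons. Pros1 and Serpind1, for protein S and heparin cofactor II, ranged from -0.11 to 0.05.

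Fibrinolysis was read from Plg and Serpinf2. Plg encodes plasminogen, the precursor of plasmin, and had 1601, 1549 and 1592 CPM in high fat B-LGND2 livers, 2305, 2144 and 1954 CPM in high fat vehicle livers and 1517, 1580 and 1180 CPM in normal diet vehicle livers. High fat vehicle libraries were above the other 6. By edgeR the difference was 0.58 for diet (SE 0.21, adjusted p = 0.116) and -0.43 for B-LGND2 (SE 0.21, adjusted p = 0.219), and DESeq2 called the diet difference (adjusted p = 0.0388). Serpinf2, which encodes the plasmin inhibitor antiplasmin, had 1603, 1164 and 997.3 CPM in high fat B-LGND2 livers, 1144, 952.1 and 942.7 CPM in high fat vehicle livers and 866.8, 1128 and 1266 CPM in normal diet vehicle livers. Those groups overlapped throughout, and its log2 fold changes ran from -0.10 to 0.31.

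Fold changes of these genes varied with transcript length, and in the last comparison also with GC content, as they did over all genes. Spearman's rho between log2 fold change and the length of the longest transcript was 0.48 for diet and -0.39 for B-LGND2 over the 36 genes, and 0.44 and -0.28 over 10824 protein-coding genes. In the last comparison it was 0.25 and 0.15. For GC content rho was -0.04 for diet, 0.18 for B-LGND2 and 0.32 in the last comparison over the 36 genes. Over protein-coding genes it was 0.13, 0.26 and 0.41 in the same order. These are correlations across genes, which share the same libraries and are not independent. Within libraries, the rank correlation of level, as deviation from the mean of all libraries, with length was -0.24 to 0.13 in high fat B-LGND2 livers, 0.32 to 0.36 in high fat vehicle livers and -0.52 to 0.19 in normal diet vehicle livers. With GC content it was 0.05 to 0.52, -0.10 to -0.02 and -0.26 to -0.16 in the same order. The 0.52 was in B-LGND2 replicate 1. C4b, F5, C3 and Masp1, all higher on the high fat diet in these libraries, have transcripts over 5 kb, and Mbl1 and Mbl2 have transcripts under 2 kb. Hc, also over 5 kb, had 0.32 for diet and -0.16 for B-LGND2. Serpinc1, at 4970 bases, went the other way, at -0.31 for diet and 0.40 for B-LGND2. With length and GC offsets, the diet values of C4b, F5, C3 and Masp1 were 0.65, 0.64, 0.20 and 0.52. What part length or GC content has in these differences was not tested further.

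**Figure D5:**
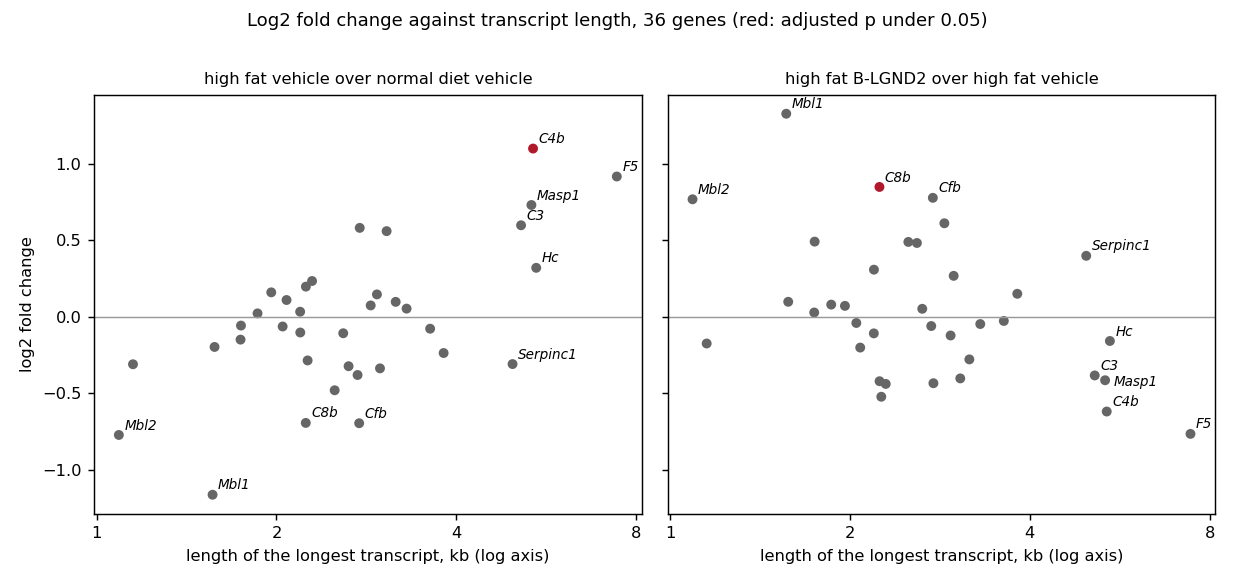
Log2 fold change of the 36 genes against the length of their longest transcript in kb on a log axis, for diet and for B-LGND2 on the high fat diet, with called genes in red. The long transcripts of F5 and C4b lie high for diet and low for B-LGND2, while Serpinc1, at 4970 bases, lies the other way in both panels. Both panels share the high fat vehicle libraries.

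Related genes outside the 37 were counted from lists of other complement, coagulation and liver genes. Of 22 other complement genes tested, 6 rose with B-LGND2 on the high fat diet and 0 fell, where 3.07% of all genes rose and 2.56% fell. The median log2 fold change of the 22 was 0.40. The risers were C1qa (2.19, adjusted p = 0.000504), C1qb (1.89, adjusted p = 0.00139) and C1qc (1.72, adjusted p = 0.00163), which encode the chains of C1q, and Fcna (1.75, adjusted p = 0.00494), Cfp (1.38, adjusted p = 0.0193) and Cd55 (1.66, adjusted p = 0.0307), all by edgeR's quasi-likelihood test. C1q is made mainly by macrophages, Fcna encodes a ficolin, Cfp properdin and Cd55 a membrane inhibitor of complement. Among the macrophage markers, 12 of 12 had a higher level with B-LGND2 and 10 were called. The 3 C1q genes are themselves among these 12, and of the 9 other markers 9 were higher and 7 were called. What part macrophage number has in the C1q values was not tested. Against normal diet vehicle, 5 rose, namely the C1q chains, C3ar1 (1.83, adjusted p = 0.0307) and Fcna (1.29, adjusted p = 0.0258). For diet, 0 rose and Cfhr2, a factor H-related gene, fell by 1.27 on the log2 scale (adjusted p = 0.0274). Of all genes, 1.59% rose with B-LGND2 against normal diet vehicle, and for diet 1.5% rose and 1.49% fell.

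Other coagulation and fibrinolysis genes had few calls. Of all genes, edgeR called 2.99% for diet, 5.63% for B-LGND2 on the high fat diet and 2.93% in the last comparison. Of 16 tested, Thbd, which encodes thrombomodulin, an endothelial cofactor of protein C activation, rose for diet (log2 fold change 1.87, adjusted p = 0.0293, edgeR quasi-likelihood test), at 12.7 ± 8.3 CPM in high fat vehicle livers and 3.47 ± 0.44 CPM in normal diet vehicle livers (SD, n = 3 each). The summed level of 7 endothelial markers was 191.0 to 214.7 CPM in high fat B-LGND2 livers, 104.8 to 146.9 CPM in high fat vehicle livers and 127.6 to 176.5 CPM in normal diet vehicle livers, and its part in the Thbd values was not tested. Over high fat vehicle, 7 of 7 endothelial markers were higher with B-LGND2 and edgeR called 1. For B-LGND2 on the high fat diet, edgeR called 0 of 16, with 3 at an unadjusted p under 0.05 and 1 called by DESeq2. In the last comparison it called 0, with 2 at an unadjusted p under 0.05 and 1 called by DESeq2. Of 5 vitamin K cycle genes, edgeR called 0 in all 3 comparisons, with 0, 1 and 0 at an unadjusted p under 0.05 and 0, 1 and 0 called by DESeq2. Over all genes, 22.4%, 23.7% and 19.4% reached an unadjusted p under 0.05, and DESeq2 called 9.63%, 9.28% and 5.46%, in the same order.

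Some acute phase and hepatocyte transcription factor genes were called, with 2 of 22 acute phase genes higher and 2 lower for diet. Of all genes, edgeR called 2.99% for diet, 5.63% for B-LGND2 on the high fat diet and 2.93% for B-LGND2 against normal diet vehicle. For diet, Socs3 (1.53, adjusted p = 0.0253) and Il6ra (1.11, adjusted p = 0.0384) rose and Saa3 (-1.72, adjusted p = 0.0364) and Apcs (-1.69, adjusted p = 0.0316) fell among 22 acute phase genes, in edgeR's quasi-likelihood test. Socs3 encodes a feedback inhibitor of cytokine signalling, Il6ra the interleukin-6 receptor, Saa3 a serum amyloid A protein and Apcs serum amyloid P. With B-LGND2, Saa3 rose over high fat vehicle (2.19, adjusted p = 0.00829), and Socs3 rose over normal diet vehicle (2.36, adjusted p = 0.00117). Counts of Saa3 were low in high fat vehicle livers, at 15, 13 and 8. For diet DESeq2 called 6 of the 22 acute phase genes, where it called 9.63% of all genes. Saa1 and Saa2 varied widely within groups. In normal diet vehicle livers Saa1 had 962, 8989 and 27265 counts and Saa2 had 338, 9427 and 32492. Their log2 fold changes for diet had SEs of 1.20 and 1.67. Of 15 hepatocyte transcription factors, Esr1, the estrogen receptor alpha gene, rose with B-LGND2 over high fat vehicle (1.12, adjusted p = 0.0287) and Cebpb fell (-0.94, adjusted p = 0.0401). Against normal diet vehicle, edgeR called 0 of 15 with B-LGND2, with 4 at an unadjusted p under 0.05 and 1 called by DESeq2. The shares over all genes were 19.4% at an unadjusted p under 0.05 and 5.46% by DESeq2.

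Of 23 other plasma proteins of the liver, Mug1, a macroglobulin-like protease inhibitor, rose for diet (log2 fold change 1.42, adjusted p = 0.012) and fell with B-LGND2 on the high fat diet (-0.95, adjusted p = 0.0363), in comparisons that share the high fat vehicle libraries. Apoa1, the main apolipoprotein of HDL (1.40, adjusted p = 0.0283), and Serpina1e, an antitrypsin gene (1.00, adjusted p = 0.0446), rose with B-LGND2, and Gc, the vitamin D-binding protein (-1.17, adjusted p = 0.014), fell, in edgeR's quasi-likelihood test. Apoa1 spread widely with B-LGND2, at 33960 ± 20930 CPM, and replicate 1 had the most counts. It had 12830 ± 972.5 CPM in high fat vehicle livers and 22640 ± 5144 CPM in normal diet vehicle livers (SD, n = 3 each). For B-LGND2 on the high fat diet, 11 of 23 had an unadjusted p under 0.05 by edgeR, 5 higher and 6 lower. DESeq2 called 10 of 23 there, and libraries did not overlap for 14. Over all genes 23.7% reached that p, DESeq2 called 9.28% and libraries did not overlap for 33.6%. For diet 7 of 23 reached that p and DESeq2 called 2, against 22.4% and 9.63% of all genes. Against the normal diet edgeR called 0 of 23, with 4 at an unadjusted p under 0.05 and 2 called by DESeq2. Over all genes the shares against the normal diet were 2.93%, 19.4% and 5.46%. EdgeR called 2.99% of all genes for diet and 5.63% for B-LGND2 on the high fat diet.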

How the data were processed

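Poly(A)-enriched liver RNA was sequenced in 9 libraries, 3 per group. The deposited file holds raw, unnormalized counts for 45513 Ensembl gene IDs in the 9 libraries. Per the submitters' processing notes, the build was GRCm38.p3 and the tools included HTSeq 0.6.1p1, TopHat2 2.0.13, SAMtools 0.1.19, Bowtie2 2.2.4 and DESeq2 1.6.3. The sources used here do not give the annotation release, the strand setting or the rule for ambiguous or multiply aligned reads, so overlapping genes and near copies can share or lose reads.

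Symbols, gene spans, exon lengths and transcript GC content came from GENCODE M21 on GRCm38, matched by ID (44671 with a symbol, 842 without). In R 4.3.3, filterByExpr of edgeR 4.0.16 (minimum count 10) kept 12102 genes and at least 99.73% of counts per library. Library sizes were scaled by TMM. A single robust quasi-likelihood model was fitted to all 9 libraries (6 residual degrees of freedom), with 3 two-sided contrasts, Benjamini-Hochberg adjustment over all genes tested and a threshold of 0.05. Each SE is the size of the log2 fold change over the root of its F. Levels are CPM on TMM-scaled sizes, and CPM per kb of all exons between genes. Per the labels, libraries were amplified, and no molecular identifiers are named, so counts are not molecules.

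All 37 genes are accounted for. Values per library are given for genes called in any contrast, for the gene with the smallest p of each role in each contrast and for the 5 highest per kb. From other lists, called genes are named, except that the diet result of the transcription factor list and 1 promoter motif are not reported here. Mbl2, C8a, the ratios and the promoters shown were chosen after values or sequences had been seen. The macrophage list without C1q genes and the share called among genes at least as abundant were added after values had been seen. Members and lists were chosen with earlier results of these data known.

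As alternatives, the fit was run with DESeq2 size factors, without scaling, without a filter, with at least 50 counts in 3 libraries, by the Wald test of DESeq2 1.42.0, by limma-voom (limma 3.58.1), with dispersions without the robust option, with the replicate number as a block, leaving out mitochondrial and ribosomal RNA genes, with the ribosomal RNA share as a covariate, with offsets for transcript length and GC content, with only the groups compared, and with each library left out. The edgeR procedure was tested on simulated counts. In that test 1 called gene of high dispersion had the wrong sign, after which the limit set for wrong signs was changed from none to a small share.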

Additional observations from a re-analysis of the deposited data

How the results depend on the processing

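Each comparison called 1 of the 36 genes, and this number moved with the processing. For diet it was 2 without scaling, 4 without a filter on low counts, 6 by DESeq2's Wald test, 0 with the ribosomal RNA share as a covariate, 0 with offsets for length and GC, and 0 to 7 when 1 library was left out. The 7 came without normal diet vehicle replicate 1, which had 12.7% mitochondrial counts where the other libraries had 3.69% to 6.12%, and in that fit 1860 of all genes were called, against 362. Shares called over all genes moved too, from 2.99% to 2.96% without scaling, 5.49% without a filter and 1.74% with the offsets. By DESeq2 the share was 9.63%, and it was 0.28% to 15% when 1 library was left out. For B-LGND2 on the high fat diet it was 5 without a filter, 5 by DESeq2, 0 with the covariate, 2 with the offsets, 5 with only the 2 groups in the fit and 0 to 6 when 1 library was left out, the 6 without normal diet vehicle replicate 3. Without scaling it was 1, but this was C4b, lower, in place of C8b. Over all genes 6.25% were called without a filter, 9.28% by DESeq2, 9.01% with the offsets and 12.1% with only the 2 groups. Without scaling the share was 5.61%, and it was 0.801% to 11.6% when 1 library was left out, against 5.63%. For B-LGND2 against the normal diet it was 0 without scaling, 0 with the replicate block, 0 with the covariate, 0 with only the 2 groups in the fit and 0 to 1 when 1 library was left out, and with the offsets it was 1, C6 in place of Kng1. Over all genes 2.2% were called there without scaling, 2.09% with the block, 1.23% with only the 2 groups and 3.38% with the offsets. When 1 library was left out the share was 0.888% to 5.16%, against 2.93%. The cause of these moves was not tested. The covariate left 1, 2 and 12 calls over all genes in the diet, ligand and last comparison, where the share lies apart between groups.

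C4b for diet was called in 15 of 21 alternatives, C8b for B-LGND2 in 15 of 21 and Kng1 in 8 of 21, and all 3 kept their direction in all 21. Alternatives were followed for the 22 fold changes of single genes with an unadjusted p under 0.05, and of these Vtn for B-LGND2 turned to -0.27 with the covariate. For B-LGND2 on the high fat diet the covariate also moved C6 to 0.24, Cfb to 1.42, F5 to -0.05 and Mbl2 to 0.40, and for diet F5 to 0.55 and Masp1 to 0.38. Without scaling, the median of all genes moved to 0.17 for diet and -0.18 for B-LGND2, against 0.01 and 0.00, and 72.6% and 31.1% of all called genes were higher, against 50.3% and 54.5%. As a block, the replicate number gave 1, 1 and 0 called genes of the 36. Correlations of same-numbered libraries ran from -0.19 to 0.12 and 1 of 9 was over 0.1, while those of different number reached 0.18. No pairing by number was seen, and so few libraries cannot exclude one. A lost call with 3 libraries a group is no sign of no difference.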
